A study of Mus musculus with 7 samples.

Results

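Respiratory complex I is the first enzyme of the mitochondrial electron transport chain. It was followed here through the genes of its nuclear-encoded subunits in splenic germinal centre B cells that lack R-Ras2, a small GTPase encoded by Rras2. A list of 35 subunit genes was taken, and a gene was kept where a probe of the array carried its symbol alone in the platform annotation. That left 32 of the 21515 genes measured. Ndufs6, Ndufb2 and Ndufb4 had no such probe and were not analysed here. Each of the 32 genes is given by 1 probe, and Ndufa8, which had 2, by the brighter. The samples were B220+ CD95+ GL7+ B cells sorted from the spleens of mice that had all been injected with sheep red blood cells 7 days before. Total RNA of 3 RRas2-deficient and 4 wild-type (WT) samples was hybridised to 1 array each. The labels call these biological replicates. They give no age, sex or strain, and leave unsaid what was deleted from Rras2, in which cells, and whether animals were pooled. For the deficient samples the title, source and genotype name RRas2, whereas the description reads Rras-deficient. The former name was used here.

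Complex I takes electrons from NADH in the mitochondrial matrix, passes them along a chain of iron-sulfur clusters to ubiquinone, and pumps protons across the inner membrane. It has the shape of an L. A matrix arm carries the flavin and the clusters, and a membrane arm pumps. Some subunits are encoded by mitochondrial DNA and form the core of the membrane arm, and the rest come from the nucleus, as do all those described here. Activated B cells in germinal centres are known to respire strongly while they divide, and the title of the series links R-Ras2 to the energy needs of these cells.

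The values are log2 intensities as normalized by the authors. Arrays have no sequencing depth, and precision is limited by how many there are. Rras2 read 6.93, 6.68 and 7.12 in RRas2-deficient replicates 1 to 3, against 7.13, 7.41, 8.66 and 8.39 in WT replicates 1 to 4. The genotypes did not overlap, by a margin of little more than 0 between the nearest arrays. The difference was -0.99 ± 0.39 (SE), which limma did not call (adjusted p = 1.00). The mean level of 11 measured germinal centre B cell markers of 14 was 9.15 to 10.1 on the deficient arrays and 9.24 to 10.4 on the WT arrays. The T cell list (8 of 9 measured) lay at 3.91 to 4.13 against 3.88 to 4.49, the myeloid list (10 of 10) at 4.14 to 4.56 against 4.13 to 4.54, and the erythroid list (2 of 8) at 4.33 to 4.52 against 4.09 to 4.51. The plasma cell list (6 of 6) lay at 6.26 to 6.63 against 6.57 to 6.79. WT replicate 3 stood apart in the X-linked RNA gene Xist, at 6.61, where the other 6 arrays read 9.43 to 10.3. It also stood apart in the Y-linked genes Eif2s3y, Kdm5d and Uty, at 6.75, 6.48 and 5.93. WT replicate 1 came next in each of them, at 4.40, 4.97 and 4.31, and was the next lowest in Xist, at 9.43. In a bulk sample, fewer cells of a type and less RNA per cell cannot be told apart.

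The arrays also differed in the spread of their values, and the complex I genes followed that spread. The interquartile range over all probes was 2.73 and 2.69 in RRas2-deficient replicates 1 and 3 and 2.91 and 2.78 in WT replicates 3 and 4, which are called the wider arrays below. It was 2.40 in RRas2-deficient replicate 2 and 2.37 and 2.49 in WT replicates 1 and 2, the narrower arrays. The labels name no batch, so what parted the arrays is not known. The mean level of the 32 complex I genes was 6.97 and 6.96 on the wider deficient arrays, and 6.16 on the narrower one. In WT it was 7.20 and 7.08 on the wider arrays, and 6.16 and 6.30 on the narrower ones. The wider arrays were thus higher than the narrower ones in both genotypes.

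**Figure D1:**
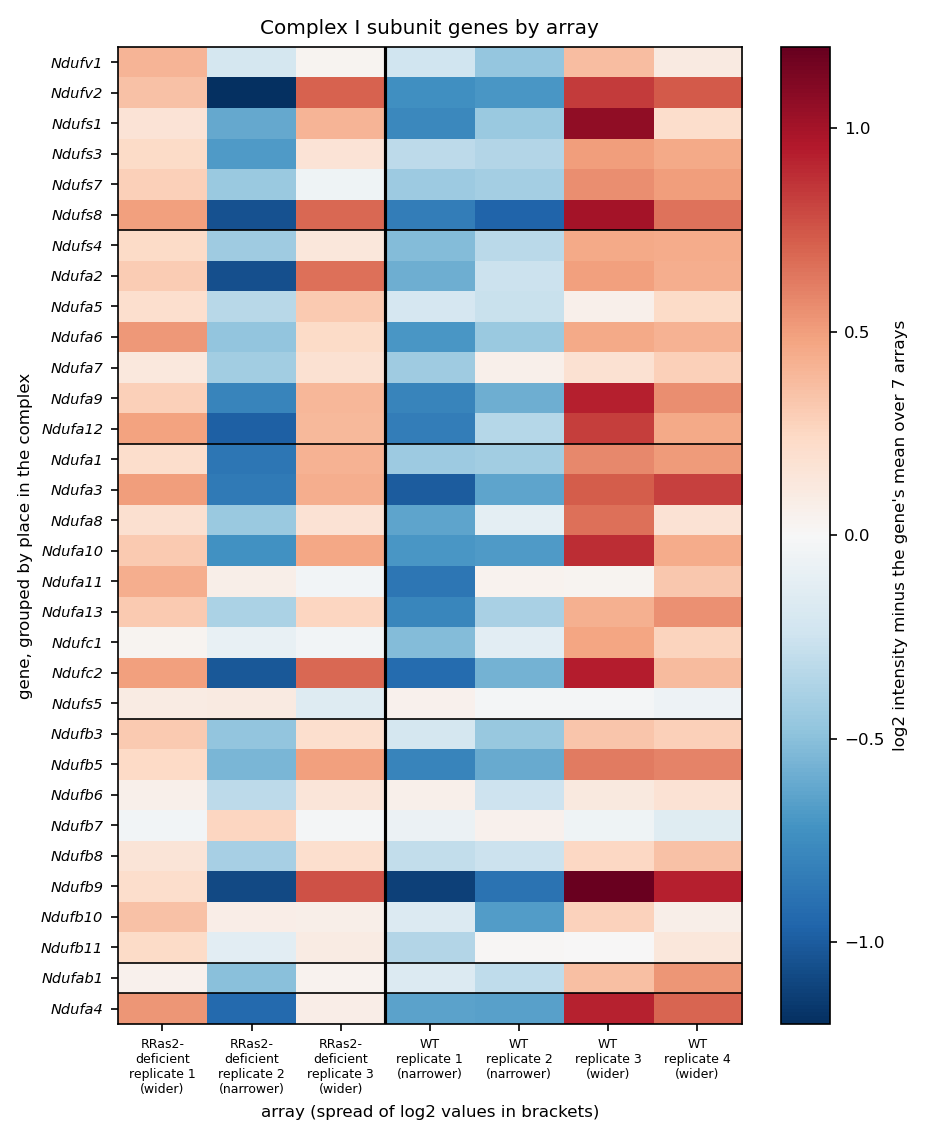
Log2 intensity of each of the 32 complex I subunit genes on each array, minus the gene's mean over the 7 arrays; red is above and blue below that mean. Rows are grouped by place in the complex (core of the matrix arm, accessory subunits of the matrix arm, of the proximal and of the distal membrane arm, Ndufab1, Ndufa4), and the line between columns parts the 3 RRas2-deficient from the 4 WT arrays. The 4 wider arrays are mostly red and the 3 narrower ones mostly blue in both genotypes. The rows of Ndufs5, which is dim on all arrays, and Ndufb7 are nearly flat.

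No complex I gene differed between the genotypes past the test. Of the 32 genes, 15 had a higher and 17 a lower mean in RRas2-deficient cells, and the median log2 difference was -0.03, beside 0.00 over the 16136 genes tested. Single differences ran from -0.24 to 0.29, with standard errors of 0.09 to 0.73. In limma 0 of the 32 passed an adjusted p of 0.05 and 0 had an unadjusted p under 0.05. Over all genes tested, 0.0124% passed the adjusted and 0.818% the unadjusted limit. The genotypes overlapped in each of the 32 genes, where 1.08% of all genes tested did not overlap. Exact two-sided permutation tests gave p = 0.286 to 1.00 for these genes, and the smallest p that 3 against 4 arrays allow is 0.0286.

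The sign of the median rested on single arrays. It was -0.21 without WT replicate 1 (7 genes higher), -0.13 without WT replicate 2 (8 higher), -0.12 without RRas2-deficient replicate 1 (6 higher) and -0.15 without RRas2-deficient replicate 3 (8 higher). It was 0.16 without WT replicate 3 (28 higher), 0.11 without WT replicate 4 (29 higher) and 0.28 without RRas2-deficient replicate 2 (29 higher). The arrays whose removal raised it are 2 of the wider WT arrays and the narrower deficient array.

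With the array set held as a block in limma, most complex I genes had a lower mean in the deficient cells. The errors shrank, with standard errors of 0.07 to 0.24. However, the sets were drawn from the spread of these same arrays. Blocked errors and p-values, here and gene by gene below, are therefore a description and may be too small. Over all genes tested, 0.818% had an unadjusted p under 0.05 in limma without the block. With the block 24 of the 32 (75.0%) were lower and 8 higher, with a median of -0.15. Of all genes tested 50.9% were lower, and their median was -0.003. Leaving out single arrays from this blocked fit gave medians of -0.22 (without RRas2-deficient replicate 2) to -0.09 (without WT replicate 3), with 6 to 8 genes higher. Again 0 of the 32 passed the adjusted threshold (0.0124% of all genes did), and the smallest adjusted p among them was 0.322. An unadjusted p under 0.05 was reached by 5 of the 32 genes on the lower side (15.6%) and by 0 on the higher. Of all genes tested, 6.24% reached it on the lower and 3.89% on the higher side. Both the 24 lower genes and these 5 include Ndufa4 (-0.41), which is described as a complex IV subunit. On the lower side 3 of 19 assembly factors, 2 of 4 complex II and 1 of 7 complex III genes also reached that p. So did 4 of 11 germinal centre B cell markers and 5 of 8 housekeeping genes, but 0 of 14 immediate early genes. Where the fit instead took each array's interquartile range as a number, the direction turned, and 24 of 32 genes were higher with a median of 0.06. After a further quantile normalization the median was 0.01 without the block and -0.08 with it.

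**Figure D2:**
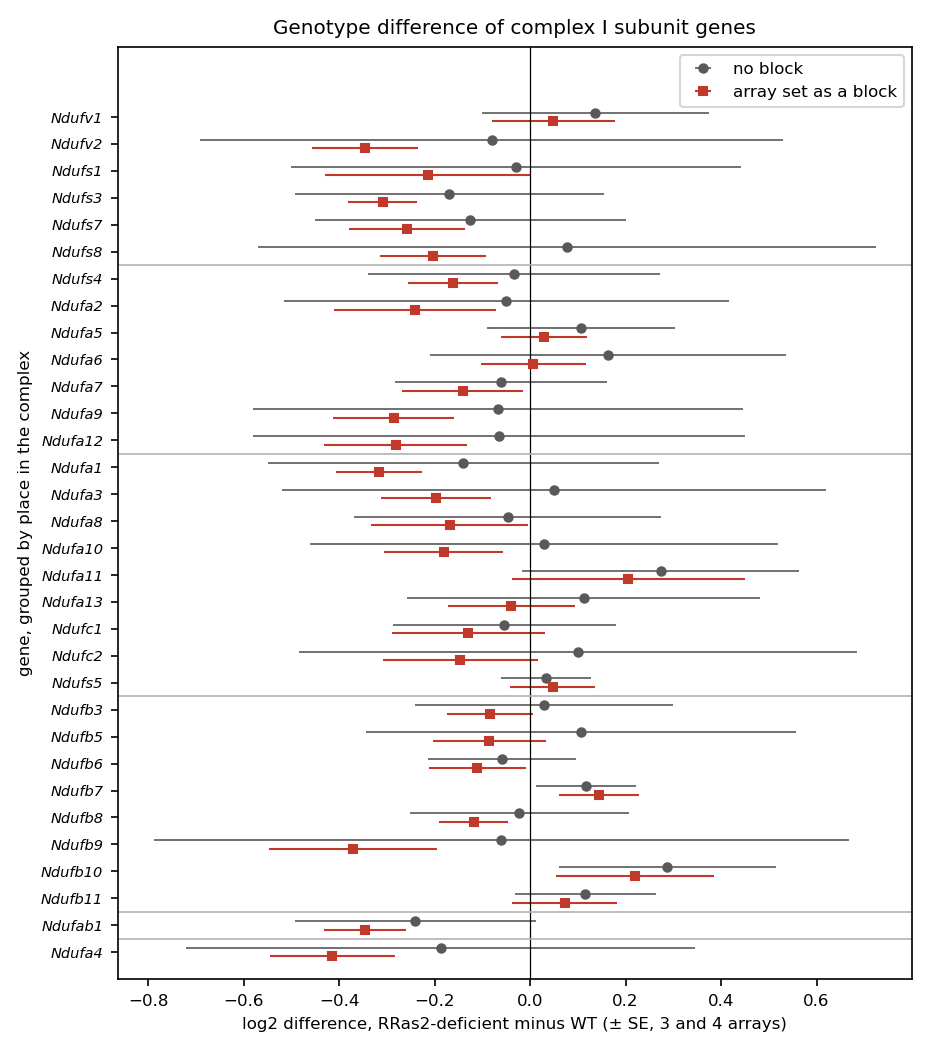
Log2 difference (RRas2-deficient minus WT, 3 and 4 arrays) of each complex I subunit gene from limma without a block (grey circles) and with the array set as a block (red squares); bars are ± 1 SE. Without the block the bars span 0 for most genes and the medians lie near 0 (-0.03), while with it 24 of 32 points lie left of 0 and 0 of the 32 pass the adjusted threshold.

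Within the 4 wider arrays alone, 25 of the 32 genes had a lower mean in the deficient cells (median -0.22). In 14 of the 32 both deficient arrays lay below both WT arrays, which was so for 18.5% of all genes tested. It was also so for 10 of 19 assembly factors, 5 of 11 germinal centre B cell markers and 6 of 8 housekeeping genes. Among 14 immediate early genes it was so for 2. Ndufb7 was the only gene of the 32 in which both deficient arrays lay above, which was so for 14.3% of all genes tested. Both wider WT arrays also had a larger interquartile range than both wider deficient arrays, and the part of this spread in the difference was not tested. Within the 3 narrower arrays, of which 1 is deficient, 22 of 32 genes were lower (median -0.07). In 20 genes the difference was below 0 in both sets, and in 5 (Ndufa11, Ndufs5, Ndufb7, Ndufb10 and Ndufb11) it was above 0 in both. The shares of all genes tested with a lower mean within each set, or within both, are not given here. These counts are therefore not read as particular to complex I.

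The core subunits of the matrix arm carry the path of the electrons from NADH towards ubiquinone. Ndufv1, the subunit that binds the flavin and oxidises NADH, read 7.53, 6.91 and 7.15 in RRas2-deficient replicates 1 to 3, against 6.87, 6.65, 7.49 and 7.22 in WT replicates 1 to 4. Its neighbour Ndufv2, an iron-sulfur protein, read 7.59, 6.05 and 7.94 in the deficient samples, against 6.51, 6.54, 8.08 and 7.97 in WT. Ndufs1, which holds several of the clusters, read 6.48, 5.70 and 6.72 in the deficient samples, against 5.54, 5.87, 7.38 and 6.53 in WT. In each of these 3 genes the wider arrays were high and the narrower ones low, and the genotypes overlapped. The group means of Ndufv2 were 7.19 ± 1.01 (SD, n = 3) in deficient cells and 7.27 ± 0.87 (SD, n = 4) in WT cells, a difference of -0.08 ± 0.61 (SE). With the array set as a block it was -0.35 ± 0.11 (SE), with an unadjusted p = 0.0165 (limma adjusted p = 0.402).

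Ndufs3, Ndufs7 and Ndufs8 lie nearer to the ubiquinone site, to which Ndufs7 passes the electrons from its cluster. Ndufs3 read 5.83, 4.91 and 5.76 in RRas2-deficient replicates 1 to 3, against 5.29, 5.24, 6.09 and 6.05 in WT replicates 1 to 4. Within each array set every deficient array was below every WT array. Its difference was -0.17 ± 0.32 (SE) without the block and -0.31 ± 0.07 (SE) with it. That blocked value had the lowest unadjusted p of the 32 genes, 0.0036 (limma adjusted p = 0.322). Ndufs7 read 8.25, 7.51 and 7.90 in the deficient samples, against 7.52, 7.55, 8.51 and 8.46 in WT. Ndufs8, an iron-sulfur protein, read 8.49, 6.95 and 8.68 in the deficient samples, against 7.17, 7.04, 8.999 and 8.65 in WT. In Ndufs8 the gap between the array sets, 1.65 on the log2 scale or 3.14-fold, was far larger than the genotype difference of 0.08 ± 0.65 (SE). Of these 6 core genes 5 had a lower blocked mean in the deficient cells, and Ndufv1 (0.05 ± 0.13, SE) did not.

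Accessory subunits of the matrix arm surround that core. Of the 7 measured (Ndufs4, Ndufa2, Ndufa5, Ndufa6, Ndufa7, Ndufa9 and Ndufa12), 2 had a higher mean and 5 a lower one in the deficient cells, with differences of -0.07 to 0.16, and with the block again 2 were higher and 5 lower. Ndufa9, which sits where the arms meet, read 7.47, 6.40 and 7.59 in RRas2-deficient replicates 1 to 3, against 6.40, 6.60, 8.13 and 7.75 in WT replicates 1 to 4. Both wider deficient arrays were below both wider WT arrays, and the blocked difference was -0.29 ± 0.13 (SE, limma adjusted p = 0.507). Ndufs4, whose loss causes a mitochondrial encephalopathy in mice and humans, differed by -0.03 ± 0.31 (SE). Ndufa6, of the family of proteins that dock the acyl carrier protein, differed by 0.16 ± 0.37 (SE).

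In the proximal membrane arm 9 genes were measured, and in the deficient cells 6 had a higher mean and 3 a lower one (median 0.03). With the block this turned to 2 higher and 7 lower (median -0.15). Ndufa1, a small X-linked subunit, read 7.18, 6.10 and 7.38 in RRas2-deficient replicates 1 to 3, against 6.53, 6.55, 7.54 and 7.48 in WT replicates 1 to 4. Within each array set the deficient arrays were the lower ones. Its difference was -0.14 ± 0.41 (SE), and -0.32 ± 0.09 (SE) with the block, with unadjusted p = 0.0096 (limma adjusted p = 0.367). WT replicate 3, which stood apart in Xist, was the highest array for Ndufa1 and close to WT replicate 4. Ndufa11 read 8.20, 7.83 and 7.73 in the deficient samples, against 6.90, 7.81, 7.80 and 8.09 in WT. WT replicate 1 was low for that gene, and the other 6 arrays did not part by genotype or by set. Ndufa13, also known as the cell death regulator GRIM-19, differed by 0.11 ± 0.37 (SE), and Ndufa10 by 0.03 ± 0.49 (SE).

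Ndufs5, a subunit of the intermembrane space face, read 3.86, 3.86 and 3.61 in RRas2-deficient replicates 1 to 3, against 3.81, 3.74, 3.74 and 3.69 in WT replicates 1 to 4. These values sit just above the limit of 3.48 under which genes were left out as dim, so Ndufs5 was measured close to that limit on all 7 arrays. The difference was 0.03 ± 0.09 (SE). Ndufb3, of the distal arm, was similarly dim, at 3.86 ± 0.42 (SD, n = 3) in the deficient cells and 3.83 ± 0.38 (SD, n = 4) in WT cells.

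The distal membrane arm, at the far end of the proton pump, held 8 measured genes. In the deficient cells 5 of them had a higher mean and 3 a lower one (median 0.07), and with the block 3 were higher and 5 lower (median -0.08). Ndufb10 had the largest positive difference of the 32 genes, 0.29 ± 0.23 (SE). It read 6.65, 6.38 and 6.37 in RRas2-deficient replicates 1 to 3, against 6.13, 5.63, 6.58 and 6.37 in WT replicates 1 to 4. The 2 narrower WT arrays were the low ones, and the narrower deficient array was not. Ndufb11, which is X-linked like Ndufa1, read 5.62, 5.26 and 5.49 in the deficient samples, against 5.04, 5.41, 5.39 and 5.53 in WT, a difference of 0.12 ± 0.15 (SE). Its values in the genotypes overlapped, and WT replicate 3 did not stand apart.

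Ndufb7, which faces the intermembrane space, read 7.07, 7.36 and 7.08 in RRas2-deficient replicates 1 to 3, against 7.04, 7.16, 7.05 and 6.96 in WT replicates 1 to 4. RRas2-deficient replicate 2, a narrower array, was its highest, and on that array most other complex I genes were low. The group means were 7.17 ± 0.16 (SD, n = 3) in deficient cells and 7.05 ± 0.08 (SD, n = 4) in WT cells. Ndufb9 ran the other way between the sets, with the largest gap of the 32 genes. It read 8.45, 7.15 and 9.01 in the deficient samples, against 7.11, 7.35, 9.42 and 9.17 in WT, and its wider arrays were 3.50-fold above the narrower ones.

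A pair of genes stand outside this division into arms. Ndufab1, the mitochondrial acyl carrier protein, is held in the complex and also serves fatty acid synthesis and iron-sulfur cluster assembly. It read 5.27, 4.71 and 5.26 in RRas2-deficient replicates 1 to 3, against 5.05, 4.91, 5.58 and 5.74 in WT replicates 1 to 4. Within each set the deficient arrays were below the WT arrays. Ndufab1 is given by array for its low p among the 32, so that order partly follows from the choice. Its difference of -0.24 ± 0.25 (SE) was the most negative of the 32 without a block. With the block it was -0.35 ± 0.09 (SE), with unadjusted p = 0.0047 (limma adjusted p = 0.337). Ndufa4 bears a complex I name but is described as a subunit of cytochrome c oxidase, complex IV. It read 8.97, 7.52 and 8.52 in the deficient samples, against 7.80, 7.79, 9.37 and 9.14 in WT. Its blocked difference of -0.41 ± 0.13 (SE) was the most negative of the 32, with unadjusted p = 0.0154 (limma adjusted p = 0.399). The median over the other 31 genes without a block was -0.02.

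**Figure D3:**
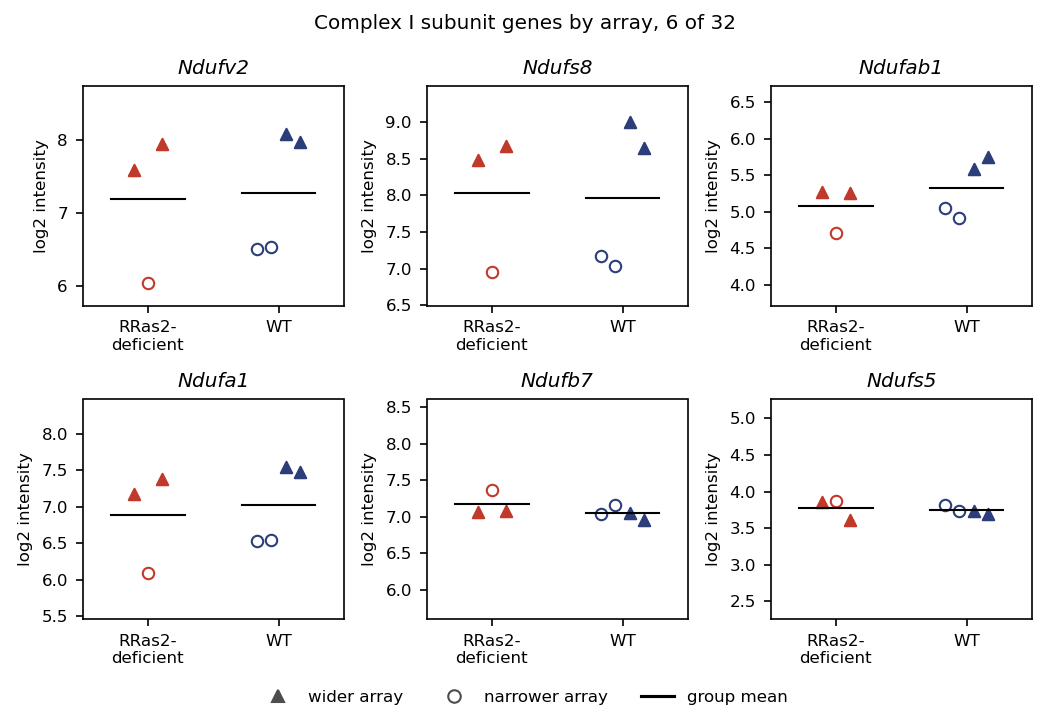
Log2 intensity of 6 complex I subunit genes on each array, with RRas2-deficient arrays left (red) and WT arrays right (blue) in each panel; filled triangles are wider arrays, open circles narrower ones, and lines the group means. Each panel spans 3 log2 units. Ndufv2, Ndufs8, Ndufab1 and Ndufa1 lie higher on the wider arrays within each genotype, whereas Ndufb7 and the dim Ndufs5 do not.

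Across the 2 array sets the complex I genes moved together. The sets were parted on the spread of all probes, these genes among them, so the gap is given as a description without a test. In 26 of the 32 genes (81.2%) all 4 wider arrays lay above all 3 narrower ones, and in 0 did they all lie below. Of all genes tested, 26.9% had all wider arrays above and 13.6% all below. The median gap over the 32 genes, wider minus narrower, was 0.77 on the log2 scale, and 13 genes were at least 2.00-fold higher on the wider arrays. In 30 genes the gap was above 0 in both genotypes, and its median was 0.70 in the deficient samples and 0.88 in WT. The exceptions were Ndufs5 and Ndufb7, with gaps of -0.08 and -0.14. Ndufa11, Ndufb6, Ndufb10 and Ndufb11 had gaps of 0.27 to 0.44 with overlapping sets. A further quantile normalization left 21 genes with all wider arrays above and a median gap of 0.57. Centring arrays on their medians gave 30 genes and 0.90, but it raises the gap of every gene by the same amount. The share of all genes under these scalings is not given here.

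Over the whole array the gap differed with the level of a gene. In 4 groups of 4034 genes from dim to bright, all wider arrays lay above all narrower ones in 1.61%, 7.71%, 36.0% and 62.4%, and all below in 18.3%, 21.4%, 9.59% and 5.13%. The median gap was alike and below 0 in the 2 dimmer groups (-0.14 and -0.15), and was 0.16 and 0.48 in the brighter ones. Those brightest genes held 19 of the 32 complex I genes. Between the arms, the median gap was 0.93 for the 6 core genes, 0.94 for the matrix arm accessory genes and 0.91 for the proximal membrane arm. It was 0.50 for the distal membrane arm, whose genes ranged from -0.14 (Ndufb7) to 1.81 (Ndufb9). The distal arm was also the dimmest of these groups, with a mean level of 5.61 to 5.67 on the narrower arrays. There the core genes lay at 6.34 to 6.48, the matrix arm accessory genes at 6.03 to 6.36 and the proximal arm at 6.42 to 6.74. The part of level in the difference between arms was not tested. In the blocked fit, genes with a larger fitted difference between the array sets had a more negative genotype difference. Pearson's r between these terms was -0.70 over the 32 genes and -0.55 over all 16136. Both quantities come from the same 7 arrays and 1 fit, in which their errors are linked. This is thus a description across genes that are not independent.

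**Figure D4:**
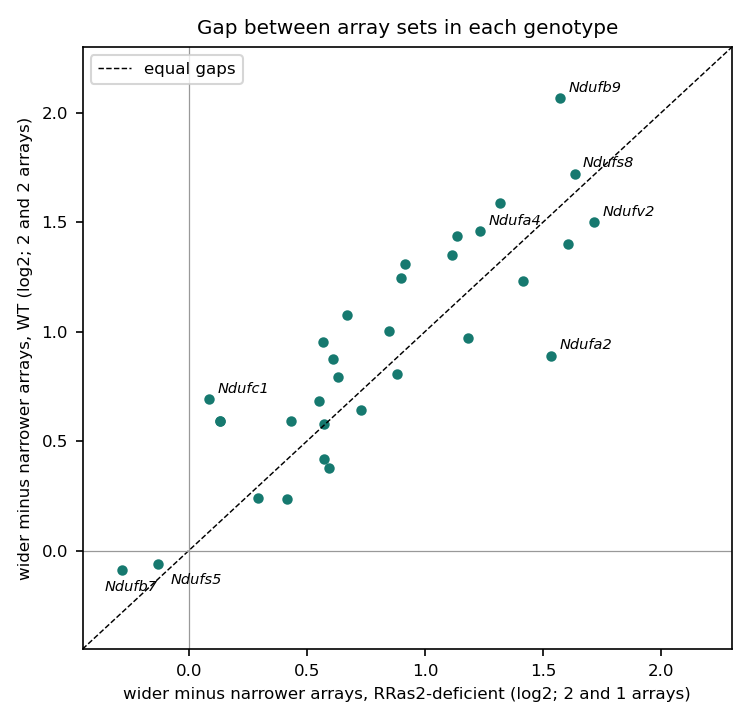
Gap between wider and narrower arrays (log2) of each of the 32 complex I subunit genes in RRas2-deficient samples (horizontal axis, 2 wider and 1 narrower arrays) and in WT samples (vertical axis, 2 and 2 arrays); the dashed line marks equal gaps. All but Ndufs5 and Ndufb7 lie above 0 on both axes, and 21 of the 32 have the larger gap in WT.

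Of the 32 measured genes, 29 had a promoter in the RefSeq table of GRCm38.p6. Windows of 180 bases, from 150 before the annotated start to 30 from it, are shown for the 3 of these genes with the largest gap between the array sets and for the 2 with a gap below 0, since these are the ends of the range. Of the latter, Ndufs5 was dim on all arrays. Capitals mark matches to the letters searched.

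Ndufs8, gap 1.65, chr19:3912745-3912924, minus strand: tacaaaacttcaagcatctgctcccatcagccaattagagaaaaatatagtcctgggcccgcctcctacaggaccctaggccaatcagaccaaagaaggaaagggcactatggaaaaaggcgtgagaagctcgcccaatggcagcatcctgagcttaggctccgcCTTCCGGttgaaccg

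Ndufv2, gap 1.53, chr17:66101530-66101709, minus strand: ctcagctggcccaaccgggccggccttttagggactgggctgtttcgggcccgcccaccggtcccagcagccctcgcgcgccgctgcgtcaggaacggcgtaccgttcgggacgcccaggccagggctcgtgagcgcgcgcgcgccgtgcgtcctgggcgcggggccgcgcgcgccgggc

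Ndufc2, gap 1.46, chr7:97399853-97400032, plus strand: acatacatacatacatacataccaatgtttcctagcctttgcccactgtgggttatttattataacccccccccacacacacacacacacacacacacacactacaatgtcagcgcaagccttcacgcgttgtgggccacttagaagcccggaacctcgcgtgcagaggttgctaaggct

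Ndufs5, gap -0.08, chr4:123718157-123718336, minus strand: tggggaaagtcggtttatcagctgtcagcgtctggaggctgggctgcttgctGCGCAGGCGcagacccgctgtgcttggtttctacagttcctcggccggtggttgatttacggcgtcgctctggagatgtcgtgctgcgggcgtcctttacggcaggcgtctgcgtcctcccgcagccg

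Ndufb7, gap -0.14, chr8:83566608-83566787, plus strand: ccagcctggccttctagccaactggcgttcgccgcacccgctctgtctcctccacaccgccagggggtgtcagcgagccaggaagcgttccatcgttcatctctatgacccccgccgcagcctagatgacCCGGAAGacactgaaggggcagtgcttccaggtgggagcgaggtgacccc

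The letters searched, on both strands of the whole 300-base promoters, were AAGATGGCG for YY1, CCGGAAG for ETS factors such as GABP, GCGCANGCG for NRF1 and CAAGGTCA for the estrogen-related receptors. These factors are known to act at many genes of respiration. The NRF1 letters were in 6 of 29 complex I genes (20.7%), against 7.03% of all genes in the table. The YY1 letters were in 4 (Ndufa9, Ndufc1, Ndufs4 and Ndufs7, 13.8%), against 1.64%. The ETS letters were in 4 (Ndufb6, Ndufb7, Ndufs3 and Ndufs8, 13.8%), against 9.93%, and the receptor letters in Ndufs5 (3.45%), against 1.76%. In the windows shown, the ETS letters occur in Ndufs8 and in Ndufb7, at opposite ends of the range of gaps, and the NRF1 letters in Ndufs5. A match is a description of the sequence and not a shown binding site.

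Among genes around complex I, 0 passed the threshold in either direction in each list that follows, with 0 at an unadjusted p under 0.05 in limma without the block. Of 19 measured assembly factors, the proteins that build the complex, 6 had a higher mean in the deficient cells and 13 a lower one (median -0.03). With the block 15 of 19 were lower (median -0.08), and all wider arrays were above all narrower ones in 13. Lyrm2 differed by -0.35 ± 0.60 (SE), and by -0.61 with the block (limma adjusted p = 0.328). Ndufaf3 had a blocked difference of -0.33 (limma adjusted p = 0.367). Among further subunit genes, Ndufv3, an accessory subunit of the matrix arm, differed by -0.03 ± 0.08 (SE). Ndufa4l2, a relative of Ndufa4, differed by 0.11 ± 0.18 (SE). Between the array sets Ndufv3 overlapped (gap 0.10) and Ndufa4l2 had all wider arrays below (gap -0.36).

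Complex II, which feeds ubiquinone from succinate, had 2 of 4 genes with a higher mean and 2 with a lower one, and with the block all 4 were lower (median -0.20). Complex III, which takes electrons from ubiquinol, had 3 of 7 higher and 4 lower, and 5 of 7 lower with the block (median -0.22). In ubiquinone synthesis 6 of 10 genes were higher and 4 lower, and with the block 5 and 5 (median 0.01). All wider arrays lay above all narrower ones in 4 of 4 genes of complex II, 6 of 7 of complex III and 3 of 10 of ubiquinone synthesis, with median gaps of 0.98, 0.51 and 0.17. The array sets also parted lists other than those of respiration, although the housekeeping list includes Sdha, counted above in complex II. The mean level of 8 housekeeping genes was 8.96 to 9.59 on the wider arrays and 8.01 to 8.36 on the narrower ones, and the germinal centre B cell markers stood at 10.1 to 10.4 against 9.15 to 9.29. The 14 immediate early genes were low on the wider arrays, at 6.42 to 7.20 against 7.65 to 8.01 on the narrower ones. The mean of the 5 measured markers of naive and marginal zone B cells was also lower there (7.08 to 7.39 against 7.86 to 8.004), but its genes did not move together. Ccr7 and S1pr1 had all wider arrays below all narrower ones, with gaps of -2.37 and -1.09, whereas Cr2 had all of them above (0.32), and Fcer2a (-0.12) and Cd1d1 (0.02) overlapped. In the blocked fit the germinal centre B cell markers were lower in the deficient cells in 11 of 11 genes (median -0.16) and the housekeeping genes in 7 of 8 (median -0.37). The plasma cell markers were lower in 6 of 6 with the block (median -0.29) and in 6 of 6 without it (median -0.22). Of these 3 lists, 0 genes were past the threshold. The part of cell makeup or of array quality in the complex I values was not tested.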

How the data were processed

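Total RNA of sorted B cells was hybridised to 1 array per sample. The authors deposited log2 intensities per transcript cluster, made with RMA and the package oligo per the submitters' processing notes, without versions. Their genome build is not given in the sources used. No 2 of the 7 arrays were identical.

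Probes with 1 symbol (22225 of 25349) were named from the platform annotation, and the brightest probe of a gene was kept. A gene was tested where its mean over the arrays reached 3.48, the 25th percentile, which 16136 of 21515 did. All 32 measured complex I genes did. The two-sided test of RRas2-deficient minus WT used lmFit and eBayes of limma 3.58.1 (R 4.3.3). P-values were adjusted by Benjamini-Hochberg across those 16136 genes, with 0.05 as the threshold. A ± beside a difference is limma's moderated standard error. Since nothing names separate animals, the spread behind the p-values is that of these samples and may be technical. Arrays with an interquartile range above 2.59, the middle of the widest step between neighbouring arrays, form the wider set. The fit was tested on simulated data.

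The genes and lists were chosen with earlier results of these data known. Values by array are given for the core subunits, X-linked members, the 6 of lowest p without and with the block, members whose gap between sets opposes that of most, and Rras2. Ndufb9 was added after its value was seen. Alternatives were other filters, probe means, quantile normalization, centring, an intensity trend, array weights (statmod 1.5.0), blocks, a covariate, each array set alone, and leaving out each array. The scalings of the gap between sets, the median without Ndufa4 or the 2 dimmest genes, and the block after quantile normalization were chosen after seeing the data.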

Additional observations from a re-analysis of the deposited data

How the results depend on the processing

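The count of complex I genes past the threshold was 0 under every alternative run with limma. The 2 genes called over the whole array became 1 with arrays centred on their medians, 5 with array weights, and 0 with the replicate block or on the wider or the narrower arrays alone. Leaving out each array, with or without the array set as a block, gave 0 to 2. The number of complex I genes with a higher mean in the deficient cells, 15 in all arrays, was 8 with array weights, 8 with the array set as a block, 24 with the interquartile range as a covariate, 7 on the wider arrays alone, and 29 with the replicate block (median 0.11), which leaves out WT replicate 4. Leaving out each array gave 6 to 29. Deviations of same-numbered samples correlated at -0.59, 0.78 and 0.66 for replicates 1 to 3. Replicates 2 and 3 are each in the same array set in both genotypes, and replicate 1 is not. These values therefore cannot show whether the numbers pair the samples. Without the block, leaving out an array changed the sign of 7 to 16 of the 32 single differences, and probe means, other filters, quantile normalization, centring and the intensity trend changed 0 to 2. Ndufs5 and Ndufb3 were too dim for a filter at the median, and without them the median was -0.03.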
